A study of Caenorhabditis elegans with 2 samples.

Results

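Genes that point away from each other share the DNA between their 5′ ends, and 346 autosomal JUN-1 peaks had their summit in such two-strand promoters. They were taken from the 2738 peaks that passed the irreproducible discovery rate (IDR) procedure. It selects regions by how consistently they rank between replicates, but a single peak can still rank differently in the 2. A peak was a member when its summit, on a chromosome other than X, lay between 1000 bp upstream and 500 bp downstream of a 5′ end of protein-coding genes on both strands. The samples were whole L3 larvae of mixed sex of strain OP234, unc-119(ed3) III with the insertion wgIs234, which carries eGFP-tagged JUN-1, in 2 biological replicates, assayed by chromatin immunoprecipitation with sequencing (ChIP-seq). The labels describe the target as the tagged protein and give the antibody as jun-1, without saying whether it binds the tag or JUN-1 itself. Both replicates carry the same mutation and insertion, so there is no second condition, and the strain is the only line. The control library that the labels name was not analysed here. Of the 2164 autosomal IDR peaks, 955 had a summit in promoter windows of one strand alone and 863 lay outside promoters. Regions of the authors' pooled list that overlapped no IDR peak are called lower-ranked regions, and 823 of them were autosomal and two-strand.

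JUN-1 is the worm member of the Jun family, basic leucine zipper (bZIP) proteins that dimerise and bind short palindromes such as the AP-1 site. Divergently transcribed neighbours can share regulatory DNA, and a factor bound between them cannot be assigned to either gene from its position alone. Many C. elegans messenger RNAs are trans-spliced, so an annotated 5′ end can lie downstream of the place where transcription starts. Whole larvae mix all tissues, so many cells with little binding and few cells with strong binding cannot be told apart.

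The 6 strongest members whose window met no annotated exon are printed to show the DNA under the summits. Each sequence is the plus strand of the ce11 build, the summit with 50 bases on each side, 5′ to 3′, with the 11 central bases in capitals. Each name gives the nearest plus-strand gene, then the nearest minus-strand gene. In order they lie at chrIII:10759199-10759299, chrIV:4750015-4750115, chrIV:654876-654976, chrII:8561380-8561480, chrV:14685747-14685847 and chrIII:5679059-5679159, all between genes except the hsp-90 window, whose summit is annotated as intronic.
tasp-1/K01G5.10: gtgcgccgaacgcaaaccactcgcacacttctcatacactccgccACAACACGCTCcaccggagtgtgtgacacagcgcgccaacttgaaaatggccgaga
Y17G9B.5/rpl-20: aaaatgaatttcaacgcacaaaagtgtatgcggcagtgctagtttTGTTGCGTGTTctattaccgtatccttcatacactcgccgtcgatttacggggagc
K11H12.8/rpl-15: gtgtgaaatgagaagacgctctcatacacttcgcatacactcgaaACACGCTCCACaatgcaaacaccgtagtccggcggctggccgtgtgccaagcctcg
F54C9.14/iff-2: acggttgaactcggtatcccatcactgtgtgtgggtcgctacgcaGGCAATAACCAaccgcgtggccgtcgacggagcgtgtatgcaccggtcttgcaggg
hsp-90/C47E8.4: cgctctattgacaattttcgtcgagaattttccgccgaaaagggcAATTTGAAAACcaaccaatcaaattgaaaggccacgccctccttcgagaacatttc
rps-12/ska-3: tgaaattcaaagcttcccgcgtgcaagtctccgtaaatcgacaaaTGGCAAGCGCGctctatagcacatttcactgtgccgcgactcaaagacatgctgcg

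None of these 6 windows holds an AP-1 site, TGAGTCA or its complement TGACTCA. The AP-1 site was present in 9 of the 346 members within 50 bp of the summit. Printed here are 4 carriers, with the site in capitals, at chrIII:10742617-10742717, chrV:13909529-13909629, chrV:20526242-20526342 and chrIV:8510694-8510794.
rib-2/tbb-1: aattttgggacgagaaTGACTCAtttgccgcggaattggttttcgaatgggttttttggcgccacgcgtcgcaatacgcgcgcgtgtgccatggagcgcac
C06B3.7/C06B3.6: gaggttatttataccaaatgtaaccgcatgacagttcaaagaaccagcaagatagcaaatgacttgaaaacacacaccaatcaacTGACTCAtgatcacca
Y38H6C.24/srh-166: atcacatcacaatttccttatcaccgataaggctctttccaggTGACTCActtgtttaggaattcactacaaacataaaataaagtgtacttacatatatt
mes-6/tag-77: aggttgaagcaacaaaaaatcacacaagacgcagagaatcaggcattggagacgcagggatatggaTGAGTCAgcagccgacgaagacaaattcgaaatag

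Some other short motifs were in more members than the AP-1 site, but they also differ in how common they are in such DNA. The AP-1 site was in 2.60% of members and in 0.871% of 26867 windows of the same length tiled over two-strand stretches. The E-box was in 4.05% of members and 1.82% of the tiled windows. The E-box CACGTG, a palindrome bound by basic helix-loop-helix proteins, was found in 14 members, and 3 are printed with the site in capitals, at chrIII:9054014-9054114, chrIV:6336817-6336917 and chrIV:8432932-8433032.
cls-2/R107.5: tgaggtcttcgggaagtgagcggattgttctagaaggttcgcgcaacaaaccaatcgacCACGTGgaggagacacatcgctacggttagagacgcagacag
ipla-6/mif-4: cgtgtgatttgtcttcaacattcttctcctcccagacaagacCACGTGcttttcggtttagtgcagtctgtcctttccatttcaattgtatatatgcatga
pdtf-1/T26A8.4: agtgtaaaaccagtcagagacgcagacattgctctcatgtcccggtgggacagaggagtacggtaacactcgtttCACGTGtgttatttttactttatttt

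The GATA site, TGATAA or its complement TTATCA, is the target of GATA zinc finger factors such as those of the worm intestine and epidermis. It was found in 42 members (12.1%, against 10.05% of the tiled windows), and the 3 printed lie at chrV:16046003-16046103, chrIII:8748798-8748898 and chrV:12820146-12820246.
ZK285.2/T10C6.15: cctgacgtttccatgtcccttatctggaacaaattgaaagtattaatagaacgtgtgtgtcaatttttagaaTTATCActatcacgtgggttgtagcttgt
sma-2/ugtp-1: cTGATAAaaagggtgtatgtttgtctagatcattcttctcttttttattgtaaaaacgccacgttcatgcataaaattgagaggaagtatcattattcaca
ugt-18/ZC443.4: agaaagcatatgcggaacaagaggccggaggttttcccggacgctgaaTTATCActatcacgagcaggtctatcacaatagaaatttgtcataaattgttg

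The element CTGCGTC, or its complement GACGCAG, was found in 28 members (8.09%, against 1.14% of the tiled windows). The member printed here, set-16/drr-2, lies at chrIII:13643669-13643769, with the site in capitals. The cls-2/R107.5 and pdtf-1/T26A8.4 windows printed above for their E-boxes hold it as well, as does the mes-6/tag-77 window printed for its AP-1 site.
set-16/drr-2: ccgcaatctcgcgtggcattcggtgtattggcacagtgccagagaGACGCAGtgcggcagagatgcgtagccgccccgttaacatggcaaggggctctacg

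JUN-1 peaks were more frequent in two-strand promoters than in the rest of the promoter territory. Of 1301 autosomal IDR peaks in promoters, 346 were two-strand, which is 26.6% (exact 95% interval 24.2 to 29.1%). Of 6130 lower-ranked regions in promoters, 823 were two-strand, 13.4% (12.6 to 14.3%). The odds ratio was 2.34 (two-sided Fisher's exact test, p = 5.42e-29). The same held per base. Two-strand windows covered 2.86 Mb and held 121 IDR peaks per Mb (exact Poisson interval 109 to 135), against 39.1 per Mb (36.7 to 41.7) in the 24.4 Mb of one-strand windows, a ratio of 3.10 (exact binomial test, p = 8.81e-60). Lower-ranked regions were at 288 per Mb in two-strand windows and 217 per Mb in one-strand windows, a ratio of 1.33 (exact test, p = 3.67e-13). With every base inside an annotated gene left out, the ratio was 3.10 for IDR peaks (219 against 70.6 per Mb) and 1.52 for lower-ranked regions (427 against 281 per Mb). For IDR peaks the ratio was 4.49 with windows from 500 bp upstream to 250 bp downstream, and 2.38 with windows reaching 2000 bp upstream. Summits lay a median of 147 bp from the nearer end in members and 251 bp in one-strand peaks, which the density tests do not allow for. Among summits within 250 bp of the nearer end, the odds ratio of the two-strand share was 2.41 (exact test, p = 2.29e-22). Neighbouring peaks were counted as independent in these tests, and the intervals cover counting error only.

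**Figure D1:**
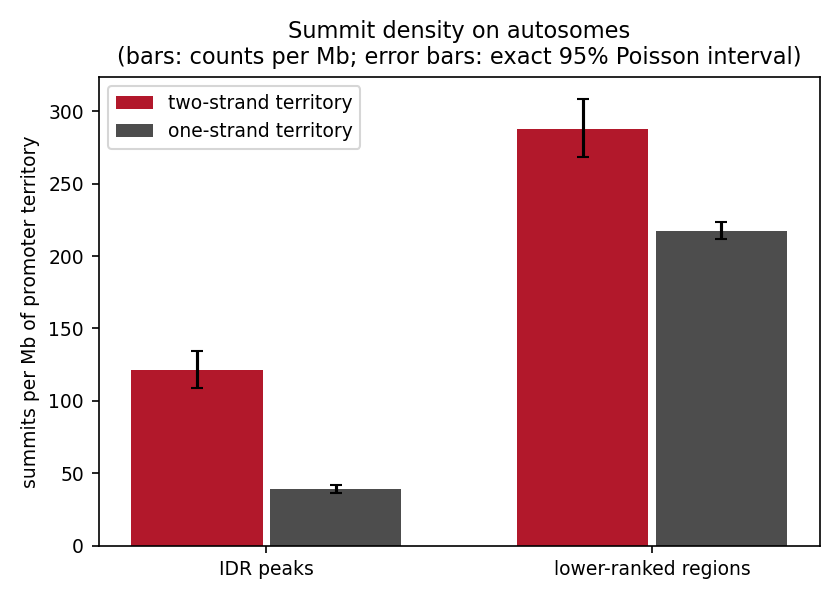
Summits per Mb of autosomal promoter territory for IDR peaks and for lower-ranked regions, with two-strand territory left of one-strand territory in each pair and exact 95% Poisson intervals as error bars. IDR peaks stand at 121 against 39.1 per Mb, and lower-ranked regions at 288 against 217 per Mb.

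The members sat between genes. The summit was upstream of both nearest 5′ ends in 312 members (90.2%, 86.5 to 93.1%) and in 609 lower-ranked regions (74.0%, 70.9 to 77.0%), an odds ratio of 3.22 (two-sided Fisher's exact test, p = 1.32e-10). It was downstream of one end in 34 members and 211 lower-ranked regions, and downstream of both in 0 members and 3 lower-ranked regions. Intergenic summits made up 264 members (76.3%), 604 one-strand peaks (63.2%) and 515 lower-ranked regions (62.6%). The odds ratio was 1.87 for members against one-strand peaks (exact test, p = 7.83e-06) and 1.93 against lower-ranked regions (p = 4.95e-06). Of the windows' own bases, 42.1% lay outside annotated genes in two-strand territory and 35.0% in one-strand territory, and the tests do not allow for that. These position tests were added after the data were seen. Of the other members, 29 summits fell in 5′ UTRs, 25 in noncoding genes, 24 in introns, 3 in coding exons and 1 in a 3′ UTR.

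Within the shared gap, no difference from lower-ranked regions was detected in how central the summit lay. Among the 312 members upstream of both ends, the gap had a median of 571 bp (quartiles 372 and 820 bp). The summit lay a median of 152 bp from the nearer end and 388 bp from the farther one, at 29.6% of the gap. The middle 50% of the gap held 182 of these members (58.3%), against 354 of 609 lower-ranked regions (58.1%), an odds ratio of 1.01 (exact test, p = 1). The plus-strand end was the nearer in 165 members and the minus-strand end in 146, with 1 tie. Of 2290 divergent adjacent gene pairs up to 2000 bp apart, 285 (12.4%) held a member. The share was 7.63% of pairs up to 250 bp apart, 19.6% above that and up to 500 bp, 16.9% up to 750 bp and 14.5% up to 1000 bp. Lower-ranked regions followed a like course over the same gaps, at 15.5%, 30.2%, 27.7% and 26.9% of pairs. Per Mb of gap, pairs with a member instead numbered 467, 534, 274 and 167 in turn. Wider gaps are limited by the window itself.

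**Figure D2:**
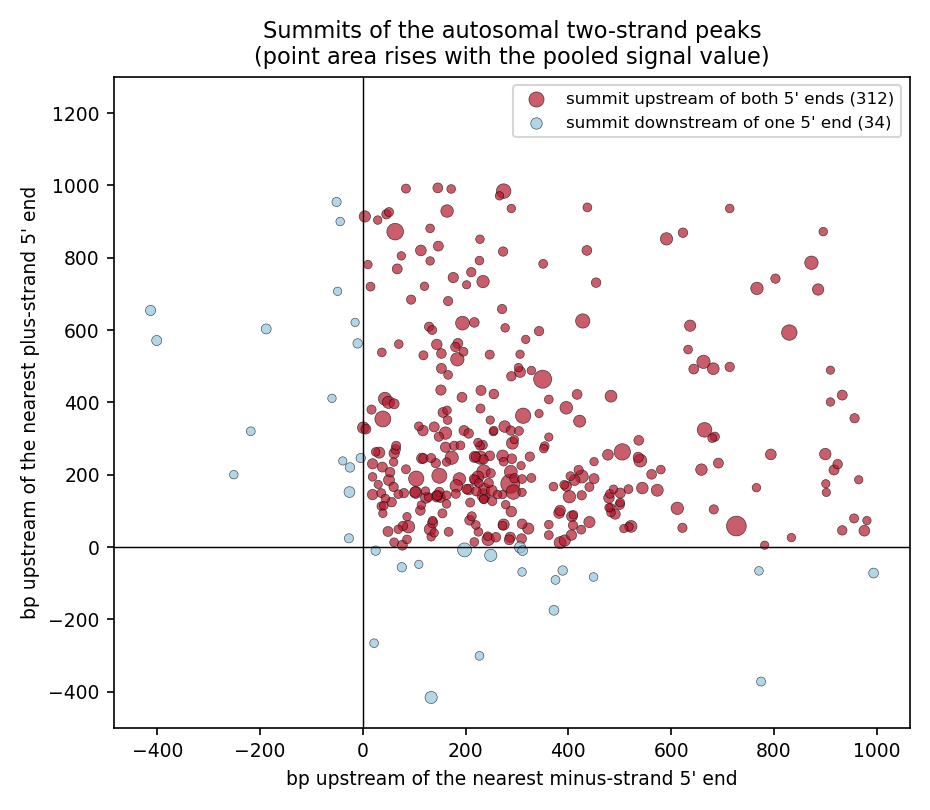
Each point is one of the 346 members, placed by its distance in bp upstream of the nearest minus-strand 5′ end (x axis) and of the nearest plus-strand 5′ end (y axis), with negative values downstream and point area rising with the pooled signal value. The 312 members upstream of both ends fill the upper right of the plot, and 34 lie downstream of one end.

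The window limits cut through a continuous set. Within 50 bp of the limit, 12 members lay just inside and 8 IDR peaks just outside. C18D11.3/maa-1 was 6 bp inside with a signal value of 57.1, and cdc-14/ttc-4 was 1 bp outside with 56.8.

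Signal values are the authors' own score for each region, on a scale that the sources used here do not state, and they serve only to rank regions within a list. The pooled value of the members had a median of 49.7 (range 31.4 to 328), against 46.3 (31.5 to 378) in one-strand peaks. The value was above the autosomal median in 193 members (55.8%, 50.4 to 61.1%) and in 455 one-strand peaks (47.6%, 44.4 to 50.9%), an odds ratio of 1.39 (two-sided Fisher's exact test, p = 0.0101). This call was lost on replicate 2 alone, with an odds ratio of 1.15 (exact test, p = 0.263), and outside annotated genes, with 1.14 (p = 0.417). A region among the 2738 strongest of both replicate lists lay within 200 bp of 238 members (68.8%) and 616 one-strand peaks (64.5%), an odds ratio of 1.21 (exact test, p = 0.165), so no difference was detected. A region in both replicate lists matched 344 of the 346 members (99.4%) and 941 of the 955 one-strand peaks (98.5%). The IDR procedure itself selects for such matches. The members' median was 20.8 in replicate 1 and 29.9 in replicate 2. Replicate 2 was the higher in 291 members (84.1%) and in 742 one-strand peaks (77.7%). With the scale not stated, these values do not compare amounts of binding between the replicates.

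The strongest member lay between tasp-1, a threonine aspartase gene, and K01G5.10. Its signal value was 328 pooled, 147 in replicate 1 and 184 in replicate 2, with the summit 58 bp upstream of tasp-1 and 727 bp upstream of K01G5.10. The next ones flanked genes of the translation machinery. Y17G9B.5/rpl-20, beside a large-subunit ribosomal protein gene, had 303 pooled, 119 in replicate 1 and 180 in replicate 2. K11H12.8/rpl-15 had 268 pooled, 117 in replicate 1 and 151 in replicate 2. F54C9.14/iff-2, beside a gene for the translation factor eIF5A, had 224 pooled, 102 in replicate 1 and 122 in replicate 2. These 4 members were chosen by pooled value, which draws on both replicates. Their standing well above the median member in each replicate is therefore no separate support.

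More ribosomal protein genes and a chaperone gene followed. rps-1/ifet-1 had 215 pooled, 99.6 in replicate 1 and 114.9 in replicate 2. lin-54/rpl-12, whose lin-54 codes for a DNA-binding subunit of the DRM complex, had 203 pooled, 93.7 in replicate 1 and 109 in replicate 2. hsp-90/C47E8.4, beside the gene of the cytosolic chaperone HSP90, had 185 pooled, 74.6 in replicate 1 and 110 in replicate 2. Its summit lay 363 bp upstream of hsp-90 and 312 bp upstream of C47E8.4. The rest of the 15 strongest ran between 146 and 188 pooled and were tag-340/nhl-2, rps-12/ska-3, set-16/drr-2, wip-1/larp-1, cls-2/R107.5, hsr-9/rps-19, vps-32.1/icd-1 and atp-1/mcrs-1. In every one of the 15 the value was higher in replicate 2.

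**Figure D3:**
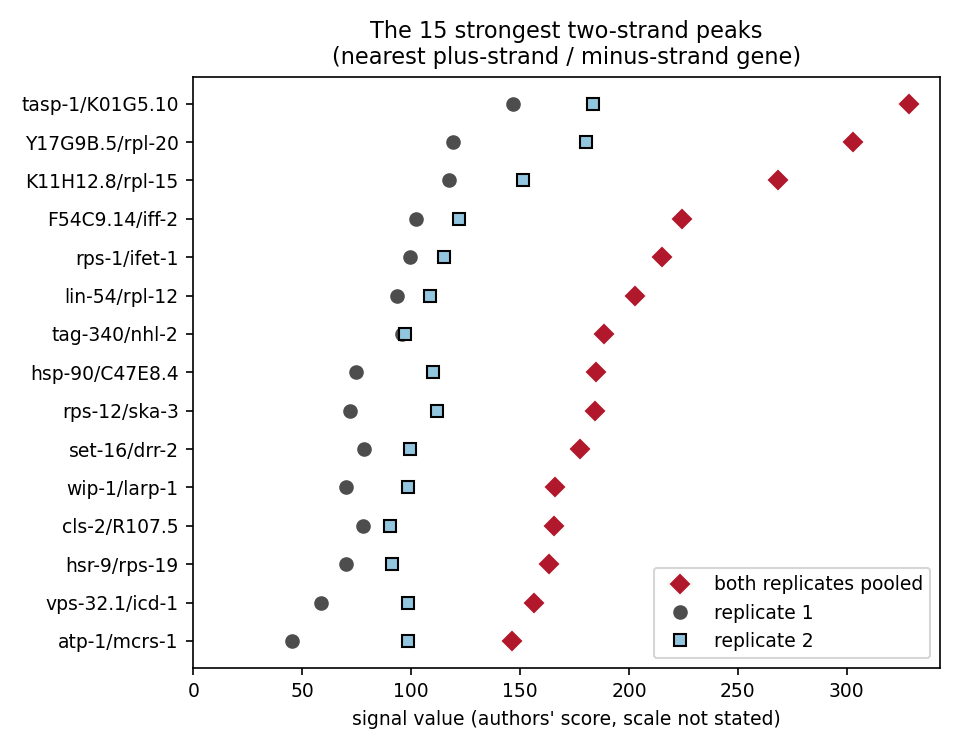
Signal values (the authors' score, x axis) of the 15 strongest members, with the pooled value as diamonds, replicate 1 as circles and replicate 2 as squares. Pooled values run from 146 at atp-1/mcrs-1 to 328 at tasp-1/K01G5.10, and the square lies right of the circle in every row.

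Of the 15, atp-1/mcrs-1 was the only one with its summit downstream of a 5′ end, 8 bp inside the 5′ end of atp-1, which codes for the alpha subunit of ATP synthase. The next strongest members of that geometry were ceh-38/malt-1 (106 pooled), T28F4.8/T28F4.4 (105), sac-2/rpl-31 (83.7) and kbp-4/rab-18 (75.04).

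Genes of translation and protein folding were frequent at the members. The background is 701 of 5567 autosomal coding genes with a two-strand stretch, 12.6%, and the gene groups are described against it without a test. Among ribosomal protein genes, 33 of 54 (61.1%) had a member, in 30 peaks whose median signal value was 59.9. Among chaperone genes it was 15 of 36 (41.7%), with a median of 90.4. Among translation factors it was 8 of 22 (36.4%), with a median of 95.3. The 25 strongest members held 6 ribosomal protein peaks and 5 chaperone peaks.

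The chaperone members spanned several folding systems, but the chaperone gene was the nearer one in only 3 of 15 peaks. hsp-60/Y22D7AL.10, beside the mitochondrial chaperonin gene, had 143 pooled, 55.2 in replicate 1 and 87.5 in replicate 2. rpn-3/hsp-110, between a proteasome lid subunit gene and an HSP70-type cochaperone gene, had 134 pooled, 59.3 in replicate 1 and 70.9 in replicate 2. cct-1/mig-5 and Y55F3AR.2/cct-8, beside genes of the cytosolic chaperonin, had 131 and 126 pooled. Among elongation factor genes, rfc-4/eef-1A.1 and eef-2/clsp-1 both had 111 pooled and eef-1G/ctf-4 had 97.0.

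Other housekeeping groups were above the background as well. RNA polymerase and general transcription genes had a member in 10 of 23 (43.5%), led by taf-4/pqn-59 at 59.7 pooled. The vacuolar ATPase had 3 of 8 (37.5%), led by vha-1/sqv-3 at 97.7. The proteasome had 8 of 24 (33.3%), splicing and mRNA processing 9 of 34 (26.5%), the respiratory chain and ATP synthase 6 of 26 (23.1%), and vesicle traffic 11 of 52 (21.2%). Mitochondrial ribosomal proteins had 6 of 31 (19.4%) and aminoacyl-tRNA synthetases 3 of 15.

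Some gene families were near or under the background. Histones had 7 of 65 (10.8%), where near-identical gene copies make the placement of reads uncertain. Nuclear hormone receptors had 4 of 45 (8.89%), led by nhr-68/H12C20.7 at 106 pooled. Cuticle collagens had 3 of 45 (6.67%) and chemoreceptors 7 of 300 (2.33%). Autophagy genes had 0 of 4, too few genes to set against the background, and 2 autophagy genes had a one-strand peak.

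**Figure D4:**
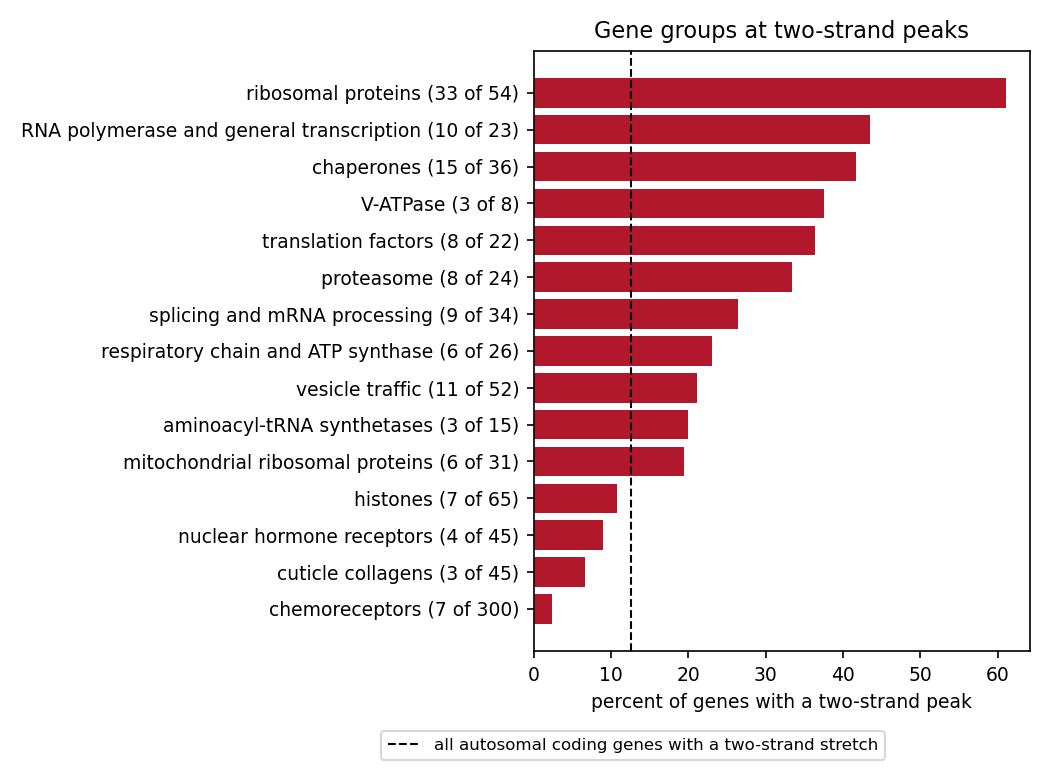
Percent of the genes of each group that had a member (bars), among genes with a two-strand stretch, with the 12.6% of all such genes as a dashed line. Ribosomal protein genes stand at 61.1% and chemoreceptors at 2.33%; groups with fewer than 8 genes are not drawn.

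Genes of JUN-1's own bZIP class and of MAP kinase pathways had members as well, in groups too small to set against the 12.6% background. Of 3 bZIP genes with a two-strand stretch, 2 had a member. nol-58/zip-4 had 2 peaks, one with 59.1 pooled, 9.24 in replicate 1 and 45.3 in replicate 2, and one with 34.6 pooled, 16.9 in replicate 1 and 16.1 in replicate 2. zip-2/ceeh-1 had 37.2 pooled, 4.50 in replicate 1 and 33.6 in replicate 2. The first zip-4 peak and this zip-2 peak were thus low in replicate 1. A one-strand peak at zip-2 was stronger, with 110 pooled, 56.4 in replicate 1 and 53.2 in replicate 2. Of 5 MAP kinase pathway genes 2 had a member. At kgb-1, a JNK-type kinase gene, T07A9.12/kgb-1 had 56.5 pooled, 17.1 in replicate 1 and 40.8 in replicate 2.

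Ribosomal protein ends lay at a narrow range of distances from the summit. The median was 301 bp (quartiles 263 and 352 bp) over 33 ends, and 27 of them (81.8%) were 200 to 450 bp from the summit. The other gene at these peaks lay at a median of 175 bp, with 8 of 27 ends (29.6%) in that range, and the ribosomal protein gene was the nearer one in 6 of 27 peaks. Chaperone ends lay at a median of 281 bp, with 12 of 15 in the range, against 34.2% of all nearest ends of the members. In one-strand peaks, 16 ribosomal protein ends had a median of 295.5 bp, and 14 were in the range. The range was chosen after the values were seen, and no test was made.

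In 20 members the nearest genes on both strands belonged to a group. Both were ribosomal protein genes at rpl-36/rps-14 (62.2 pooled), rps-30/rpl-39 (57.5) and rpl-24.1/rps-10 (48.5), both were splicing factor genes at rsp-1/rsp-2 (76.0), and both were histone genes at his-68/his-67 (46.7), his-62/his-61 (44.5) and his-41/his-35 (43.5). In all, 118 members had a gene of some group, and the members touched 701 genes in 341 distinct pairs.

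GATA sites were the clearest sequence difference between members and one-strand peaks. Whether the promoters themselves differ in GATA sites was not tested. The site lay within 50 bp of the summit in 42 members (12.1%) and 239 one-strand peaks (25.03%), an odds ratio of 0.414 (two-sided Fisher's exact test, Benjamini-Hochberg over 15 motifs, adjusted p = 4.03e-06). The share was 14.3% in two-strand lower-ranked regions (exact test, adjusted p = 0.659) and 10.05% in all 26867 windows of the same length tiled over two-strand stretches. The difference from one-strand peaks remained under all 13 alternative settings, with odds ratios of 0.291 to 0.533. Members with a GATA site had a median signal value of 43.1, and 15 of the 42 were above the autosomal median. Of the 15 motifs it was the only one that passed.

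With a search of 50 bp on each side, no difference in the AP-1 site was detected between the 2 kinds of peak. It was in 9 members (2.60%) and 36 one-strand peaks (3.77%), an odds ratio of 0.682 (exact test, adjusted p = 0.652). On replicate 1 alone the odds ratio was 0.442 (exact test, adjusted p = 0.336), and with 100 bp searched on each side it was 0.401 and passed (exact test, adjusted p = 0.0363). Against lower-ranked two-strand regions, with 9 of 823 (1.09%), the odds ratio was 2.42 (exact test, adjusted p = 0.147), and 0.871% of the tiled windows held the site. That second odds ratio was 3.09 on replicate 2 alone, 1.38 on replicate 1 alone and 1.08 with the 100 bp search, and passed in none of the alternatives run. The strongest carrier, rib-2/tbb-1, ranked 23 among the members, with 126 pooled, 44.1 in replicate 1 and 82.4 in replicate 2. The weakest was inx-16/inx-15 with 34.6. The others were C06B3.7/C06B3.6, sac-2/rpl-31, Y106G6H.16/ska-1, alx-1/mog-1, Y38H6C.24/srh-166, mes-6/tag-77 and uri-1/mdt-18. The PAR-type site TTACGTAA was in 0 members, and the related CRE, TGACGTCA, in 2. The C/EBP-type site TTGCGCAA was in 5 members (1.45%) and 6 one-strand peaks (0.628%), an odds ratio of 2.32 (exact test, adjusted p = 0.453). Against lower-ranked two-strand regions, with 2 (0.243%), its odds ratio was 6.02 and missed the threshold (exact test, adjusted p = 0.0669).

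Against lower-ranked two-strand regions, 4 motifs passed. The GAGA repeat GAGAGAGA was in 17 members (4.91%) and 10 lower-ranked regions (1.22%), an odds ratio of 4.20 (exact test, adjusted p = 0.00176). The CTGCGTC element was in 8.09% and 3.04%, an odds ratio of 2.81 (exact test, adjusted p = 0.00176). The splice acceptor TTTTCAG was in 3.18% and 11.7%, an odds ratio of 0.249 (exact test, adjusted p = 1.69e-05). On replicate 2 alone the splice acceptor odds ratio was 0.514 (exact test, adjusted p = 0.0372). The TATA box TATAAA was in 6.07% and 11.7%, an odds ratio of 0.489 (exact test, adjusted p = 0.0141). These differences were not particular to two-strand peaks. One-strand peaks held the GAGA repeat in 5.65%, the CTGCGTC element in 11.6%, the splice acceptor in 3.66% and the TATA box in 7.43%. With the 50 bp search, no difference between members and one-strand peaks was detected for these 4 motifs. Base composition differed between the sets as well. Summit windows were 45.0 ± 7.85% GC in members (SD, n = 346), 43.1 ± 8.71% in one-strand peaks (n = 955) and 37.2 ± 8.80% in lower-ranked regions (n = 823). Within windows of 40 to 50% GC, the CTGCGTC element (odds ratio 3.24, exact test, adjusted p = 0.0477) and the splice acceptor (0.187, adjusted p = 0.0362) still passed. The TATA box had an odds ratio of 1.65 there (exact test, adjusted p = 0.955). The GAGA repeat had an odds ratio of 4.96 and just missed the threshold (exact test, adjusted p = 0.051). The GAGA call was also lost on replicate 2 alone (odds ratio 2.21, exact test, adjusted p = 0.23). Carriers of an E-box had a median signal value of 90.3, with 11 of 14 above the autosomal median, while the E-box share of 4.05% against 1.58% missed the threshold (odds ratio 2.63, exact test, adjusted p = 0.0511). The E-box share of one-strand peaks was 6.49%.

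**Figure D5:**
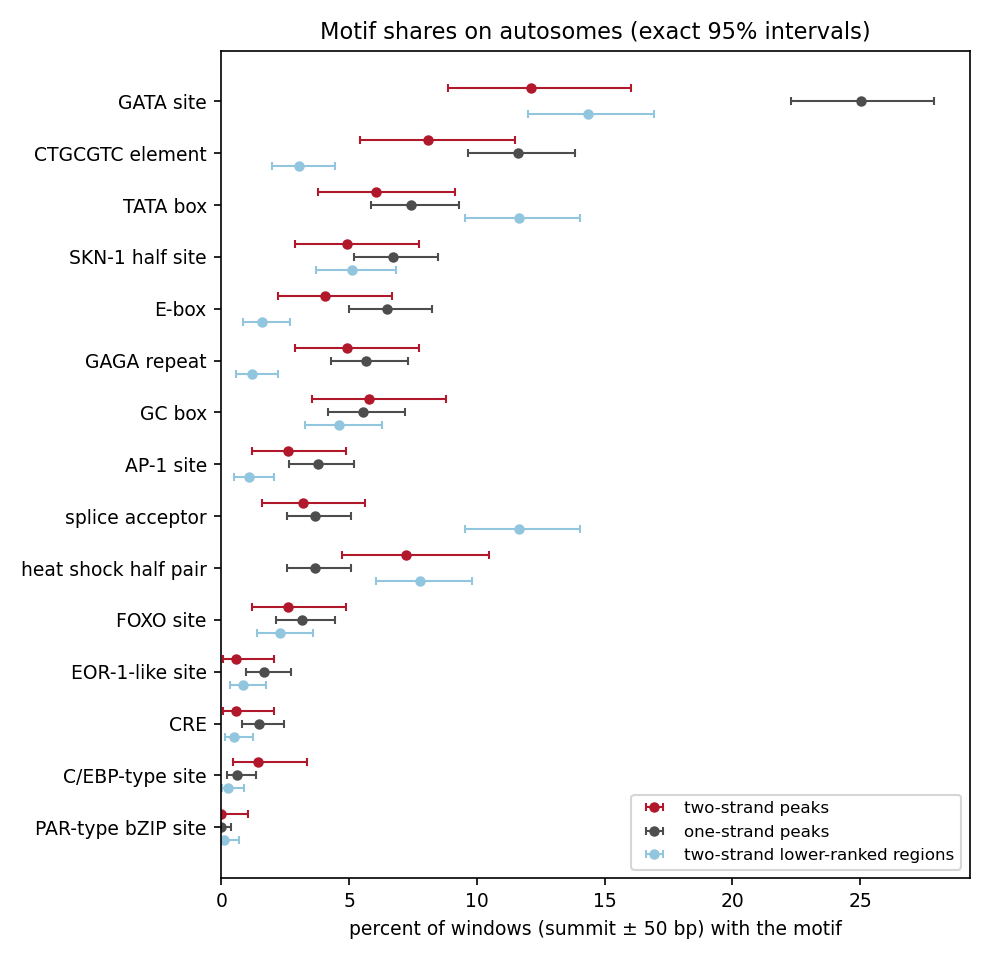
Percent of summit windows with each of the 15 motifs, in members (red), one-strand peaks (grey) and two-strand lower-ranked regions (blue), with exact 95% intervals. GATA sites stand at 12.1%, 25.03% and 14.3%.

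Genes of tRNAs and other structural RNAs were less often near the members than near one-strand peaks. A tRNA, snoRNA, snRNA or rRNA gene lay within 100 bp of 4 members (1.16%) and 41 one-strand peaks (4.29%), an odds ratio of 0.261 (two-sided Fisher's exact test, p = 0.00527). The 4 were F09G2.2/attf-2 (122 pooled), Y75B8A.23/tim-1 (121), pqn-71/rocf-1 (96.3) and cpr-9/gcy-33 (56.4). Summits inside noncoding genes of any kind ran the other way, at 7.23% of members, 4.19% of one-strand peaks and 2.92% of lower-ranked regions, which was not tested. The call for structural RNA genes was lost on replicate 2 alone, with an odds ratio of 0.438 (exact test, p = 0.0759), and outside annotated genes, with 0.397 (p = 0.148).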

How the data were processed

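JUN-1 ChIP-seq was made from 2 larval replicates of a strain with the eGFP-tagged protein; whether the antibody binds the tag is not stated. Per the labels, the deposited peak lists were made for the ce10 and ce11 builds, and the ce11 lists were used: the IDR list (2738 regions), the pooled list (20820) and 1 list per replicate (27417 and 28475). Each region carries a score (signal value, scale not stated) and a −log10 q-value as deposited by the authors. No source used here names the aligner, the peak caller or the sequencing depth, which is therefore unknown, and intervals cover counting error only. 

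Summits were placed against the Ensembl gene annotation of WBcel235 with Python 3.11.15, pandas 2.3.3 and scipy 1.17.1. Sequences are from the RefSeq copy of WBcel235, whose chromosome lengths match the files. A peak is named by the gene with the nearest 5′ end on each strand. Text names the 15 strongest members, up to 8 AP-1 carriers, 5 per geometry and up to 4 per gene group, ranked by signal value; the last AP-1 carrier, the divergent pairs of one group and the peaks by noncoding RNA genes were named after their values were seen. Motif windows reached 50 bp to each side, and either strand counted. Fisher's and binomial tests treat regions as independent. Replicates are matched within 200 bp, and a result on 1 replicate alone uses the 2738 strongest regions of its list in place of the IDR list. Scripts were tested on simulated data. Members, motifs and gene groups were chosen with earlier results of these data known; 2 gene groups were corrected, and the position and intergenic tests added, after the lists were read.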

Additional observations from a re-analysis of the deposited data

How the results depend on the processing

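The two-strand share of promoter peaks, the density ratio, the GATA difference from one-strand peaks and the splice acceptor difference from lower-ranked regions kept their direction and call under every alternative run. Of 181 alternative values, 147 were labelled unchanged. These include counts of differing motifs, 9 against one-strand peaks and 11 against lower-ranked regions, which have no call. For such counts the label allowed some change, such as 4 becoming 3 or 6. The AP-1 site against one-strand peaks passed with 100 bp searched on each side (odds ratio 0.401, exact test, adjusted p = 0.0363). Motifs that differed from one-strand peaks numbered 1, but 2 with promoter windows reaching 2000 bp upstream, 3 with the 100 bp search, 2 within 40 to 50% GC, and 1 to 3 across single replicates. Motifs that differed from lower-ranked regions numbered 4, but 1 with a 25 bp search, 2 within 40 to 50% GC, and 3 to 6 under the others. For noncoding RNA genes the odds ratio of 0.261 no longer passed in the stronger 50% of the IDR list (0.396, Fisher's exact p = 0.0887), with the summit inside the gene (0.305, p = 0.306), outside annotated genes (0.397, p = 0.148) or within 250 bp of the nearer end (0.338, p = 0.227), and was 0.372 to 0.438 with one replicate left out. Being top-ranked in both replicates passed with the 2000 bp window (1.33, exact p = 0.0151) and turned to 0.990 outside annotated genes (p = 1). The upper signal values turned to 0.987 in the stronger 50% of the list (exact p = 1), fell short outside annotated genes (1.14, p = 0.417) and within 250 bp (1.32, p = 0.0704), and were 1.15 to 1.36 with one replicate left out. The TATA odds ratio turned to 1.65 within 40 to 50% GC, and its call was lost in 3 other alternatives. The E-box against lower-ranked regions passed in 6 of 13 alternatives, and the GAGA call was lost in 5. The causes were not tested. The settings outside genes, without the 100 strongest peaks and within 250 bp were chosen after seeing the data. No paired analysis was possible because both replicates belong to the same group. With the read depth unknown, the smallest detectable binding cannot be given.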

Other observations

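Of the 6 printed windows of the strongest members, 3, at tasp-1/K01G5.10, Y17G9B.5/rpl-20 and K11H12.8/rpl-15, share the letters CATACACT or the complement. These letters, and ACACGCTC, were picked by eye from those windows after their signal values were known, so their counts are a description with no test. Outside the 6 printed windows, CATACACT was in 3 of 340 members (0.882%), namely rps-1/ifet-1, dcn-1/evl-14 and nog-1/T07A9.15, against 3 of 955 one-strand peaks (0.314%), 1 of 823 two-strand lower-ranked regions (0.122%) and 0.179% of the tiled windows. ACACGCTC was in 3 of the 6 printed windows, in 2 of the 340 other members (0.588%) and in 10 one-strand peaks (1.05%). The counts outside the printed windows are too few to separate the sets: the exact intervals for CATACACT are 0.182 to 2.56% in the other members and 0.0648 to 0.915% in one-strand peaks.

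No motif of the 15 was found in 179 members (51.7%), against 353 one-strand peaks (37.0%) and 410 two-strand lower-ranked regions (49.8%).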
